A study of Homo sapiens with 8 samples.

Results

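The 8 transcripts described here are those of 4 EGF family ligands (AREG, EREG, TGFA and HBEGF) and of the 4 ERBB receptors (EGFR, ERBB2, ERBB3 and ERBB4), chosen by gene name from 19035 genes in the expression table. AREG was known to be lower in sgSETD1A when the genes were chosen. All 8 had a row in the table. The cells were KPL-1, an established line from a human breast cancer, and the study concerned SETD1A, an enzyme that methylates histone H3 in gene promoters. All cells carried a doxycycline-inducible Cas9 (iCas9) and were collected on day 7 of doxycycline. The 3 sgEmpty libraries, labelled wild type, came from cells with an empty guide vector, and the 3 sgSETD1A libraries, labelled SETD1A knockout, from cells with a guide against SETD1A. The labels do not say whether these were pools or single clones, how many guides were used, or whether replicates were separate cultures, so a p-value here reflects the spread of these libraries alone, which can be technical.

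The EGF family ligands are made as membrane proteins and are released by proteases at the cell surface. They bind EGFR or ERBB4, whereas no ligand is known for ERBB2, and ERBB3, which binds neuregulins, has little kinase activity of its own and signals in pairs with other receptors. Bound receptors pair up and phosphorylate each other, which feeds the RAS-ERK and PI3K-AKT pathways. Amphiregulin, the product of AREG, is an oestrogen-induced growth factor of the mammary epithelium, and ERBB2 is the receptor that is amplified in a class of breast cancers.

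Between 11769 and 11961 genes reached 1 TPM (a read-based level corrected for transcript length and library total) in each library, and the sequencing depth is unknown. The target of the guide, SETD1A, measured 17.5, 17.5 and 18.1 TPM in sgEmpty and 9.36, 11.3 and 10.7 TPM in sgSETD1A, so its transcript remained at 58.9% of the control mean. All 7 luminal epithelial markers examined, among them KRT8, EPCAM and ESR1, were at 1 TPM or more in every library (summed 14157 to 15231 TPM in sgEmpty and 16115 to 16631 TPM in sgSETD1A), and all 5 immune and all 3 endothelial markers were under 1 TPM in every library. In sgSETD1A the luminal markers KRT8, KRT18, KRT19, EPCAM and GATA3 stood between 110.8% and 119.9% of their control means, but ESR1 at 100.5% and CDH1 at 93.7%. The summed basal markers (KRT5, KRT14 and TP63) ran from 0.282 to 0.592 TPM in sgEmpty and from 1.12 to 1.31 TPM in sgSETD1A. Nearly all of this sum was TP63, with KRT5 at 0 throughout and KRT14 at 0 except in sgSETD1A replicate 3 (0.155 TPM). The part of these differences in the results below was not tested. The 4 fibroblast markers summed to 3.38 to 4.22 and 3.07 to 4.99 TPM, mostly COL1A1. Within its group, sgSETD1A replicate 1 stood apart: its correlations with the others across genes on the log2 scale were 0.99558 and 0.99537, against 0.99768 between those.

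AREG fell to 54.1% of its control level, and among the ligands it was the only one at a high level. It measured 124.9, 113.9 and 113.3 TPM in sgEmpty and 64.4, 60.1 and 66.2 TPM in sgSETD1A. The groups lay far apart, and the 3 libraries of each group stayed close together. The means were 117.4 ± 6.55 and 63.6 ± 3.13 TPM (SD, n = 3). On the log2(TPM + 1) scale used for all changes here, the change was -0.87 (95% CI -0.99 to -0.76, SE 0.052; limma adjusted p = 6.62e-06, adjusted over all 11885 genes with a mean of at least 1 TPM). Of those genes, 47 had a more negative change. An exact two-sided permutation test of AREG alone gave p = 0.1, the smallest value that 3 against 3 libraries allow. The fall in these same libraries was known when AREG was chosen, so the tests and the rank are no independent support for it. RefSeq gives AREGB as a synonym of AREG. The sources used here do not say how reads of near-identical copies of this gene were assigned. The level of AREG is therefore uncertain, and any effect on its spread or change was not tested.

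EREG, which encodes epiregulin and is the next protein-coding gene to AREG in the RefSeq order, was also lower, at a far smaller level. It measured 0.530, 0.455 and 0.558 TPM in sgEmpty and 0.269, 0.336 and 0.251 TPM in sgSETD1A. The groups did not overlap, and sgSETD1A stood at 55.5% of the control mean. With a mean of 0.400 TPM, EREG did not pass the filter of 1 TPM, and its test comes from the same fit with no filter. There the change was -0.24 log2 (SE 0.047; limma adjusted p = 0.0126, over 16152 genes), a value that the added 1 TPM compresses. In that fit 1.76% of the genes with a mean under 1 TPM were called lower, and 9.14% of all its genes. Groups did not overlap in 13.6% of the genes under 1 TPM. The call was lost with the replicate number as a block (limma adjusted p = 0.0509), and it held without each library in turn. The ratio of AREG to EREG in TPM was 229.8 ± 24.1 in sgEmpty and 227.3 ± 43.6 in sgSETD1A (SD, n = 3), a difference within the spread of the libraries (exact two-sided permutation p = 1). Both ligands thus stood at a similar share of their control level, although the precision for EREG is limited by its low value. The ratio also rests on the uncertain level of AREG.

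The stretches upstream of both genes are shown because they are neighbours that were lower together. They are the 250 bases before the annotated start, from RefSeq on GRCh38.p14, both on the plus strand, at chr4:74444886-74445135 for AREG and chr4:74364895-74365144 for EREG. They were searched on both strands for 7 motifs, and capitals mark the matches.
AREG: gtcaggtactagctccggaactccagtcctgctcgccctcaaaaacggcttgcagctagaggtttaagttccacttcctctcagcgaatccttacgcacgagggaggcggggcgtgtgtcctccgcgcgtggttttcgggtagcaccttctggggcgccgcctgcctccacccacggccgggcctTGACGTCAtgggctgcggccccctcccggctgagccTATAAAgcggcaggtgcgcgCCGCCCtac
EREG: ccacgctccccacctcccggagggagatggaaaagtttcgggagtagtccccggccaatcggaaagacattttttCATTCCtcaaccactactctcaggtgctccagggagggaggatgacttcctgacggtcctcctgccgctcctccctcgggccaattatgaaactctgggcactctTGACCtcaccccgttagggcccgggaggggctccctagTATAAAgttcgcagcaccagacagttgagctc
Both held a TATA box (TATAAA), from -29 to -24 in AREG and from -32 to -27 in EREG, counted back from the start; 10.7% of the 35116 RefSeq promoters searched the same way held one. AREG alone of the 7 members with a promoter entry held a cAMP response element (TGACGTCA, from -65 to -58), which 1.65% of promoters held, and a GC box (GGGCGG, 42.6% of promoters) lay on its other strand from -9 to -4. EREG held a TEAD site (GGAATG, other strand, -175 to -170, in 11.9% of promoters) and an oestrogen response half-site (GGTCA, other strand, -70 to -66, in 32.6% of promoters). Neither held the full oestrogen response element (in 0.0399% of promoters; it contains the half-site) or an AP-1 site (TGANTCA, in 6.57%). Outside this pair, entry 2 of EGFR also held a TATA box (-36 to -31 and -146 to -141) and a TEAD site (-114 to -109). GC boxes also lay in TGFA, HBEGF, EGFR and ERBB4, and half-sites in TGFA, HBEGF and ERBB4. All of these are matches of letters in 1 window and no measure of binding. ERBB3 had no promoter entry.

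TGFA, which encodes transforming growth factor alpha, did not differ detectably between the groups. It measured 7.62, 7.45 and 7.10 TPM in sgEmpty and 8.27, 7.09 and 7.09 TPM in sgSETD1A, so the groups overlapped. The difference was 0.013 log2 (95% CI -0.16 to 0.19; limma adjusted p = 0.903), and its sign turned after median-ratio rescaling (-0.052), after quantile normalization (-0.055), without sgEmpty replicate 3 (-0.012) and without sgSETD1A replicate 1 (-0.052). HBEGF, which encodes heparin-binding EGF-like growth factor, had a mean of 0.973 TPM, just under the filter. Its values were 0.926, 0.640 and 0.677 TPM in sgEmpty and 1.21, 0.838 and 1.55 TPM in sgSETD1A. The groups overlapped, and the fit with no filter gave a difference of 0.32 log2 (95% CI 0.015 to 0.63; limma adjusted p = 0.111). Without sgSETD1A replicate 2, its lowest library in that group, HBEGF was called higher (0.44 log2, limma adjusted p = 0.0380).

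**Figure D1:**
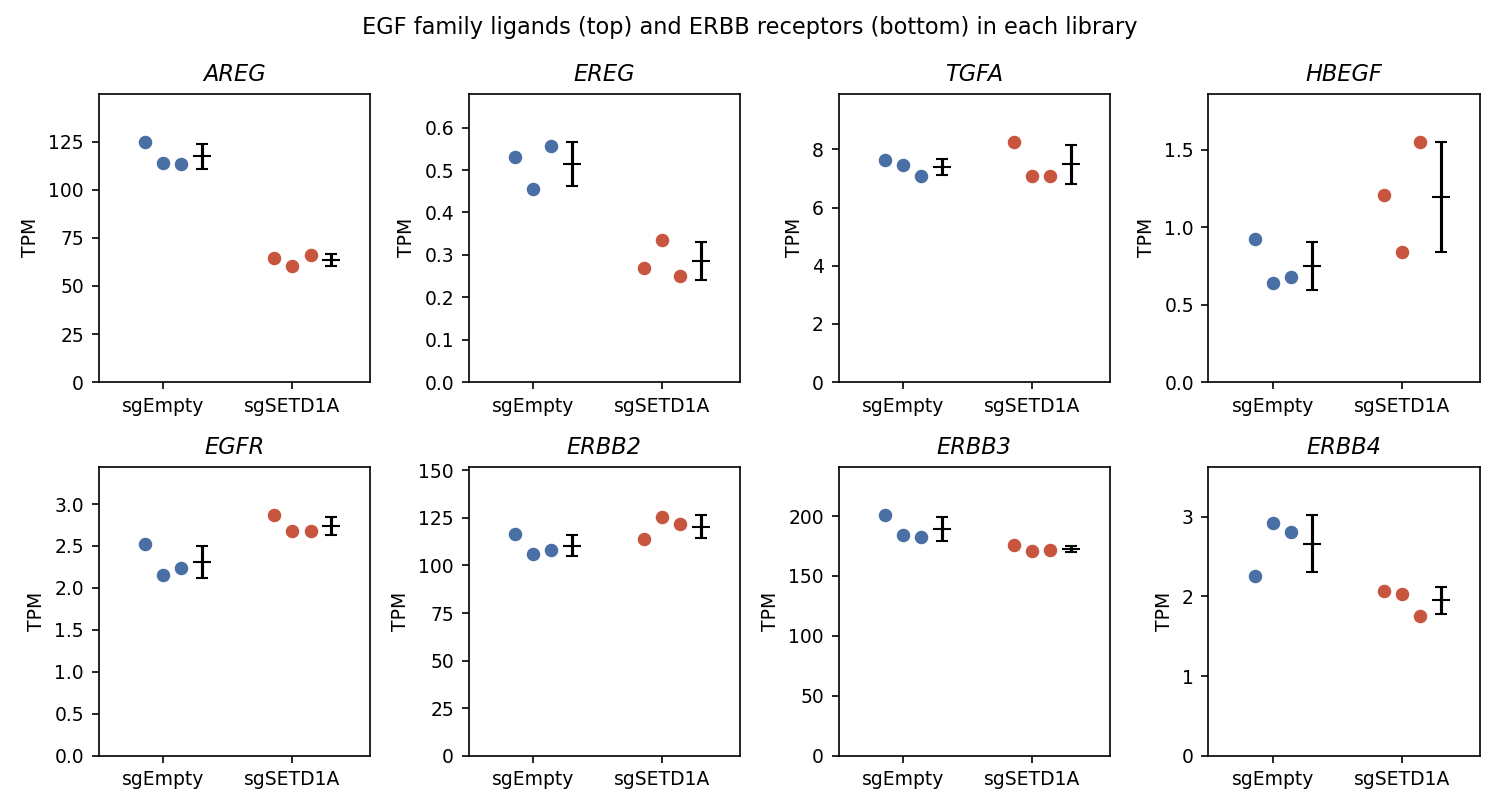
Level of each ligand (top row) and receptor (bottom row) in TPM, with 1 point per library, blue for sgEmpty and red for sgSETD1A; bars are the mean ± SD over 3 libraries and each axis starts at 0. AREG lies between 113.3 and 124.9 TPM in sgEmpty and between 60.1 and 66.2 TPM in sgSETD1A, and EREG is split in the same way near 0.5 and 0.3 TPM.

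The other EGF family ligands were low in these cells. BTC, which encodes betacellulin and follows AREG on the chromosome, ran from 1.71 to 2.41 TPM in sgEmpty and from 1.62 to 2.39 TPM in sgSETD1A. The neuregulin gene NRG3 ran from 1.77 to 2.13 and from 1.76 to 2.61 TPM. Neither was called (limma adjusted p = 0.531 and 0.527), and of these 2 tested ligands 0 had an unadjusted p under 0.05. NRG2 measured 0.200, 0.257 and 0.0956 TPM in sgEmpty and 0.408, 0.430 and 0.663 TPM in sgSETD1A, with no overlap. In the fit with no filter NRG2 was called higher (0.34 log2, SE 0.082, limma adjusted p = 0.0243), where 18.8% of all genes were. Of the genes under 1 TPM in that fit, 6.73% were called in either direction and 1.76% lower. The call of NRG2 was lost when sgEmpty replicate 1 or 3 or sgSETD1A replicate 3 was left out (limma adjusted p = 0.0617, 0.0720 and 0.0509). It was also lost with the replicate block (limma adjusted p = 0.0763). NRG4 stayed between 0.295 and 0.599 TPM, and EPGN, the next gene beyond EREG, was listed at 0 in 4 libraries. EGF itself did not exceed 0.106 TPM, and NRG1, the best known ligand of ERBB3, was listed at 0 in 5 libraries and at 0.0503 TPM in sgSETD1A replicate 1.

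Among all 11 ligands, AREG made up 89.9%, 90.0% and 89.4% of the summed TPM in sgEmpty and 81.4%, 81.8% and 82.1% in sgSETD1A. The groups did not overlap, and the share was 8.01 percentage points lower (exact two-sided permutation p = 0.1, the smallest possible). This share follows from the level and the already known fall of AREG, so its p is no separate support. The share is also as uncertain as that level. The summed ligand level went from 130.8 ± 7.07 to 77.7 ± 3.79 TPM (SD, n = 3). Without AREG the other 10 ligands summed to 13.4 ± 0.633 and 14.2 ± 0.72 TPM (SD, n = 3; exact two-sided permutation p = 0.3), so the difference in the sum lay in AREG.

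Among the receptors, ERBB3 and ERBB4 were called lower, by small amounts, and neither EGFR nor ERBB2 was called. Counting both classes, 6 of the 8 genes had a mean of at least 1 TPM. Of these 6, 3 were called lower (AREG, ERBB3 and ERBB4) and 0 higher, where 13.5% of all tested genes were called lower and 28.0% higher. At an unadjusted p under 0.05, 1 of them was higher (ERBB2) and 3 were lower. In 4 of the 6 the groups did not overlap, against 53.7% of all tested genes. The fall of AREG was known when the genes were chosen, so nothing is read from these counts.

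ERBB3 was the most abundant of the 8 transcripts. It measured 200.8, 183.8 and 182.9 TPM in sgEmpty and 175.7, 171.1 and 171.6 TPM in sgSETD1A. Every sgSETD1A library lay below every control, and sgSETD1A stood at 91.3% of the control mean. The change was -0.13 log2 (95% CI -0.22 to -0.035, SE 0.042; limma adjusted p = 0.0330). It was larger after median-ratio rescaling (-0.20, limma adjusted p = 0.00507). The call rested on few libraries: without sgEmpty replicate 1, the highest, the change was -0.085 (limma adjusted p = 0.0804), and without sgSETD1A replicate 2 or 3 the adjusted p was 0.0868 and 0.0920. It was also lost with no filter (0.0560) and with no mean-variance trend (0.0858).

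ERBB4, a receptor for neuregulins and for some EGF-like ligands, was low. It measured 2.25, 2.92 and 2.81 TPM in sgEmpty and 2.07, 2.03 and 1.76 TPM in sgSETD1A. The groups did not overlap, and sgSETD1A stood at 73.4% of the control mean. The change was -0.31 log2 (95% CI -0.55 to -0.068, SE 0.11; limma adjusted p = 0.0430). It was called in 7 of 13 alternatives, both rescalings included. The call was lost without sgEmpty replicate 2 or 3 or sgSETD1A replicate 2 or 3 (limma adjusted p = 0.145, 0.120, 0.0780 and 0.131), with no filter (0.0531) and with the replicate block (0.0611).

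ERBB2 measured 116.6, 106.2 and 108.2 TPM in sgEmpty and 113.8, 125.7 and 121.7 TPM in sgSETD1A. The lowest sgSETD1A library lay within the control range, so the groups overlapped. The difference was 0.12 log2 (95% CI 0.014 to 0.24; limma adjusted p = 0.0687). ERBB2 was called higher without sgEmpty replicate 1 (0.16, limma adjusted p = 0.0332) or sgSETD1A replicate 1 (0.16, limma adjusted p = 0.0193), and the difference was 0.051 log2 after median-ratio rescaling (limma adjusted p = 0.443). EGFR measured 2.52, 2.16 and 2.24 TPM in sgEmpty and 2.87, 2.67 and 2.67 TPM in sgSETD1A. Its groups did not overlap, but the difference of 0.18 log2 was not called (95% CI -0.025 to 0.38; limma adjusted p = 0.141). It was called only with no mean-variance trend (limma adjusted p = 0.0406) among 13 alternatives.

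**Figure D2:**
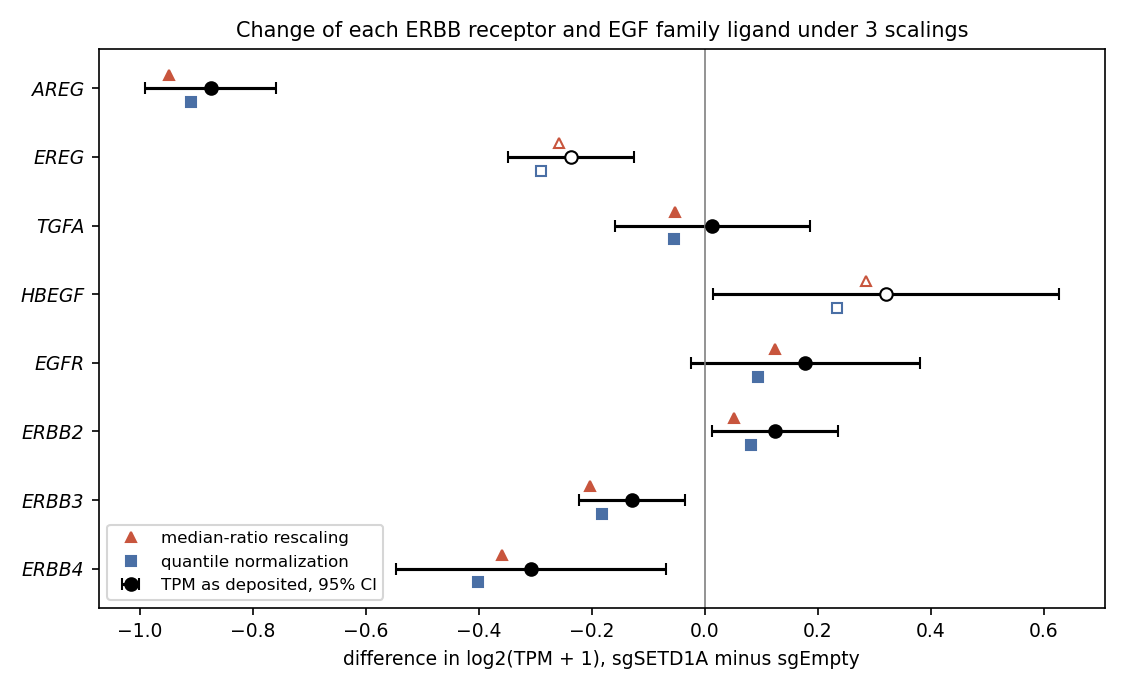
Difference in log2(TPM + 1), sgSETD1A minus sgEmpty, for each of the 8 genes. Circles with bars are limma estimates with 95% confidence intervals on TPM as deposited, triangles and squares the estimates after median-ratio rescaling and quantile normalization, and open symbols the genes under 1 TPM, from the fit with no filter. AREG lies between -0.95 and -0.87 under these scalings, and those of TGFA lie on both sides of 0.

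The order of the levels differed between the groups. In sgEmpty it ran ERBB3, AREG, ERBB2, TGFA, ERBB4, EGFR, HBEGF and EREG. The neighbours AREG and ERBB2 overlapped there (lowest AREG 113.3, highest ERBB2 116.6 TPM), as did ERBB4 and EGFR. In sgSETD1A the order was ERBB3, ERBB2, AREG, TGFA, EGFR, ERBB4, HBEGF and EREG, and no neighbours overlapped. The ratio of AREG to ERBB2 was 1.07, 1.07 and 1.05 in sgEmpty and 0.566, 0.478 and 0.543 in sgSETD1A. The place of AREG in each order and this ratio rest on the level of AREG, which is uncertain because of its near-identical copies.

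Of the summed TPM of the 4 receptors, ERBB3 took 62.3%, 62.3% and 61.8% in sgEmpty and 59.7%, 56.8% and 57.6% in sgSETD1A. The share of ERBB2 was between 36.0% and 36.5% in sgEmpty and 38.7%, 41.7% and 40.9% in sgSETD1A. A single scaling factor per library leaves these shares as they are, and neither overlapped between groups; they were not computed after quantile normalization. The difference, sgSETD1A minus sgEmpty, was -4.11 percentage points for ERBB3 and 4.17 points for ERBB2. Each had an exact two-sided permutation p = 0.1, the smallest possible, or 0.133 adjusted over the 4 receptors. Since ERBB3 and ERBB2 made up nearly all of the sum, these differences mirror each other and are not separate results. EGFR (0.757% and 0.920% on average) and ERBB4 (0.880% and 0.656%) stayed under 1% in every library, with exact permutation p = 0.1 and 0.2.

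**Figure D3:**
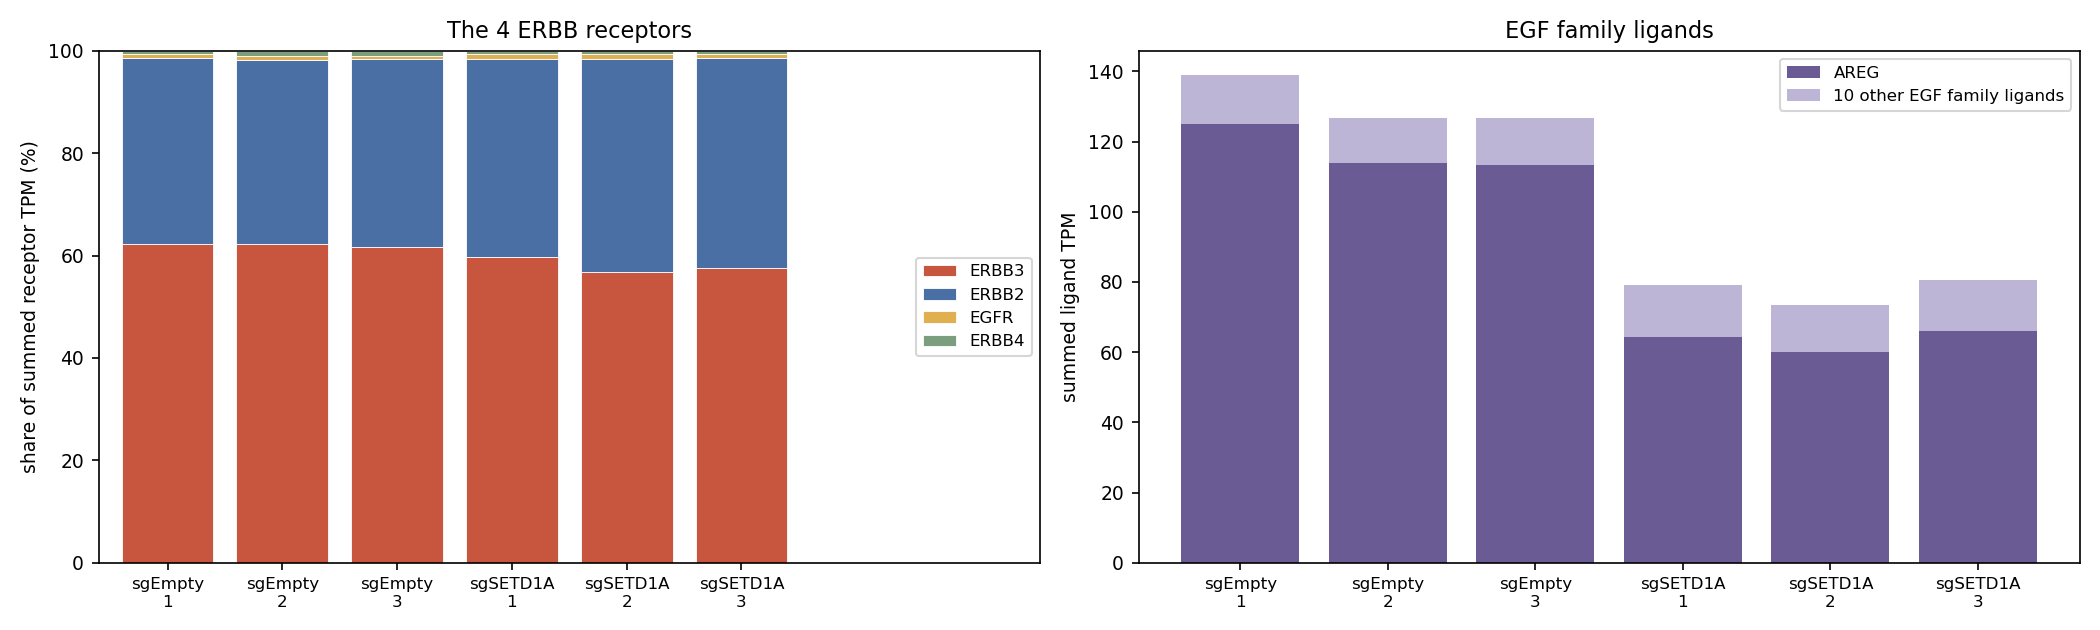
Left, the share of each receptor in the summed TPM of the 4 ERBB receptors, per library; right, the summed TPM of AREG and of 10 other EGF family ligands, per library. The ERBB3 share lies between 61.8% and 62.3% in sgEmpty and between 56.8% and 59.7% in sgSETD1A, and the ligand sum is lower in sgSETD1A in its AREG portion.

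Among all tested genes the median change was 0.073 log2, and 67.5% of the 4932 calls were higher (3327, against 1605 lower). After median-ratio rescaling 44.6% of calls were higher (1837, against 2284 lower) and the median was 0.0042, and after quantile normalization 51.1% were higher, with a median of 0.021. Differences given on TPM as deposited include this shift of the median. The falls of AREG, ERBB3 and ERBB4 were called under all 3 scalings, and 19.2% of tested genes were called lower after median-ratio rescaling.

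**Figure D4:**
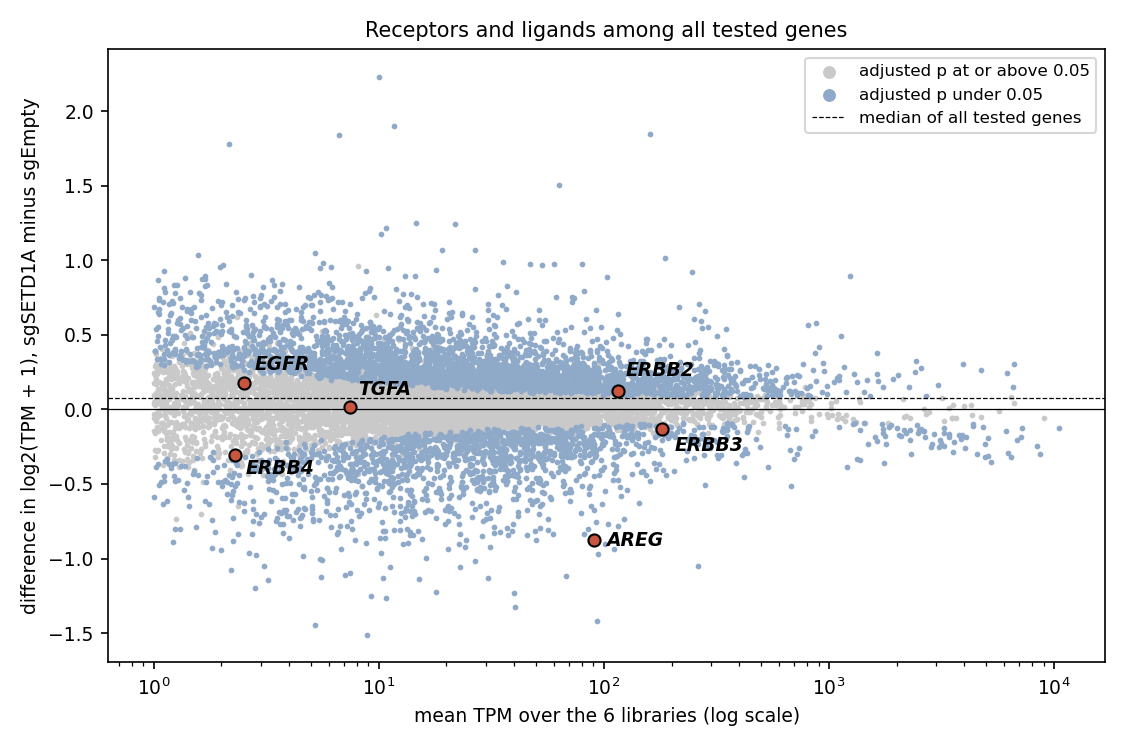
Mean TPM over the 6 libraries (log axis) against the difference in log2(TPM + 1), sgSETD1A minus sgEmpty, for 11885 tested genes, with blue points for an adjusted p under 0.05; the 6 tested receptors and ligands are marked. AREG lies at -0.87, with 47 genes below it, whereas the receptors and TGFA lie between -0.31 and 0.18.

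By the likeness of their pattern over the 6 libraries (Pearson's r of log2(TPM + 1), among 8293 other genes with a mean of at least 10 TPM), the genes nearest to AREG were HINT2 (r = 0.9984), a mitochondrial hydrolase, MAZ (0.9984), a zinc finger transcription factor, SNX17 (0.9981), a sorting nexin, TMEM209 (0.9981) and CRAT (0.9978), carnitine acetyltransferase. All 5 were called lower, with changes from -1.12 (HINT2) to -0.19 log2 (MAZ). A difference between 2 groups sets such an r, and 501 genes reached 0.95 with AREG. ERBB2 was nearest to the kinase gene CDK2 (0.9983), LPHN1 (0.9950), now ADGRL1, and C19orf21 (0.9946), now MISP, none of them called. ERBB3 was nearest to the glucose transporter SLC2A1 (0.9918), LYPD3 (0.9908) and CPT1A (0.9851), an enzyme of fatty acid oxidation, which changed by -0.18, -0.17 and -0.12 log2 and were called lower. The points of each r share their libraries, and 102 and 42 genes reached 0.95 with ERBB2 and ERBB3.

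Of the 5 protein-coding neighbours on each side of AREG, 4 were tested, of which 2 were called higher and 1 lower, where 41.5% of all tested genes were called in either direction. PARM1 went from 4.26 ± 0.0911 to 6.08 ± 0.26 TPM (SD, n = 3; 0.43 log2, limma adjusted p = 0.00164), and THAP6 from 9.36 ± 0.559 to 6.72 ± 0.419 TPM (-0.42 log2, limma adjusted p = 0.00184). RCHY1, a ubiquitin ligase gene, rose by 0.22 log2 (limma adjusted p = 0.0292), a call lost after median-ratio rescaling (0.118). The chemokine genes CXCL2 and CXCL3 were listed at 0 in all 6 libraries. Around ERBB2, in the stretch that is often amplified with it, 5 of 10 neighbours were tested and 0 were called by limma (41.5% of all tested genes were), with 2 at an unadjusted p under 0.05 (PGAP3 and GRB7). GRB7, an adaptor that binds ERBB2, measured 22.8 ± 0.896 and 25.2 ± 1.57 TPM (SD, n = 3; limma adjusted p = 0.0925).

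The next genes are those that release and carry the ligands. Of 10 genes of ligand shedding and trafficking, 8 were tested, and 1 was called higher and 1 lower, where 28.0% of all tested genes were called higher and 13.5% lower. ADAM17, the main protease that frees AREG and TGFA from the membrane, went from 28.0 ± 1.26 to 31.6 ± 1.29 TPM (SD, n = 3). The rise was 0.17 log2 (limma adjusted p = 0.0298) and was not called after median-ratio rescaling (0.197). ADAM9 changed by -0.15 log2 (limma adjusted p = 0.0451) and was also called after median-ratio rescaling (0.0106), but not with no filter (0.0747). With no mean-variance trend 0 genes of the list were lower, where 1486 of all tested genes were. After median-ratio rescaling 0 were higher and 2 lower, where 15.5% and 19.2% of all tested genes were. The median of the 8 was 0.075 log2, against 0.073 for all tested genes. Neither call held when sgEmpty replicate 2 or sgSETD1A replicate 2 was left out. The rise was also lost with sgEmpty replicate 3 left out, and the fall with sgEmpty replicate 1 or sgSETD1A replicate 3 left out. With sgSETD1A replicate 1 left out, 2 genes of the list were higher. That fit called 3459 of all tested genes higher, against 3327 with every library.

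Adaptors and kinases of the RAS-ERK chain were more often called higher than lower, as were all tested genes. Of 20 such genes, all tested, 12 were called higher and 1 lower, and their median was 0.16 log2. Over all tested genes the median was 0.073 log2, and 28.0% were called higher and 13.5% lower. SRC, a kinase that phosphorylates EGFR, went from 1.80 ± 0.243 to 3.75 ± 0.478 TPM (SD, n = 3; 0.76 log2 with SE 0.11, limma adjusted p = 7.01e-04). KSR1, a scaffold of the kinase chain, rose by 0.40 log2 (limma adjusted p = 0.0119). MAPK3, which encodes the kinase ERK1, was the 1 fall, from 128 ± 4.95 to 113 ± 1.85 TPM (SD, n = 3; -0.18 log2, limma adjusted p = 0.00626). After median-ratio rescaling 6 were higher and 1 lower, where 15.5% and 19.2% of all tested genes were. Quantile normalization gave 8 and 1, where it called 2146 and 2054 of all 11885 tested genes. Leaving out sgEmpty replicate 1 or sgSETD1A replicate 2 left 7 higher and 1 lower. Those fits called 2810 and 2548 of all tested genes higher, against 3327 with every library. They called 1376 and 1383 lower, against 1605.

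Of 20 PI3K-AKT genes, 18 were tested, 2 were called higher and 1 lower, and 15 were not called, where 28.0% of all tested genes were higher and 13.5% lower. The median was 7.99e-05 log2, against 0.073 over all tested genes. RPTOR, which encodes the mTOR partner raptor, went from 9.32 ± 0.457 to 7.10 ± 0.331 TPM (SD, n = 3; -0.35 log2, limma adjusted p = 0.00352). The kinase gene AKT2 rose by 0.21 and PIK3R3, a regulatory subunit, by 0.13 log2 (limma adjusted p = 0.00989 and 0.0263), and neither was called after median-ratio rescaling, where 0 of the 18 were higher and 3 lower (15.5% and 19.2% of all tested genes). With quantile normalization, or with sgEmpty replicate 1 or 3 or sgSETD1A replicate 3 left out, 1 was higher. Quantile normalization, or leaving out sgSETD1A replicate 1, gave 2 lower. Of all tested genes, quantile normalization called 2146 higher and 2054 lower. Leaving out sgEmpty replicate 1 or 3 or sgSETD1A replicate 3 called 2810, 2639 and 2435 of them higher. Without sgSETD1A replicate 1, 1616 of them were lower. PIK3CA, which encodes 1 of the catalytic subunits, measured 11.0 ± 0.481 and 11.3 ± 0.143 TPM (SD, n = 3; limma adjusted p = 0.680). PIK3CB, another, was higher in level, with 37.4 ± 0.466 and 40.4 ± 1.84 TPM (SD, n = 3; limma adjusted p = 0.0954). PIK3CD, under 1 TPM, was called higher in the fit with no filter (0.34 log2, limma adjusted p = 0.0189), where 18.8% of all genes were. Of the genes under 1 TPM in that fit, 6.73% were called in either direction and 1.76% lower.

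Of 24 negative regulators of the receptors and of ERK, all tested, 9 were called higher and 2 lower, beside 28.0% and 13.5% of all tested genes. Their median was 0.12 log2, that of all tested genes 0.073. DUSP4, a phosphatase that acts on ERK, went from 231 ± 3.57 to 305 ± 4.67 TPM (SD, n = 3; 0.40 log2, limma adjusted p = 2.17e-05). SPRY1, a Sprouty inhibitor of RAS-ERK signalling, rose by 0.40 log2 (limma adjusted p = 0.00642). DUSP5 and PTPRK, both phosphatases, changed by -0.28 and -0.23 log2 (limma adjusted p = 0.0211 and 0.00997). After median-ratio rescaling 4 were higher and 2 lower, beside 15.5% and 19.2% of all tested genes. Quantile normalization gave 5 and 2, beside 2146 and 2054 of all 11885 tested genes. Without sgSETD1A replicate 3 there were 5 and 1, beside 2435 and 1336 of all tested genes. With sgEmpty replicate 1 or 3 or sgSETD1A replicate 2 left out, 1 was lower, beside 1376, 1288 and 1383 of all tested genes.

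Of 24 genes known to be induced by ERK, 23 were tested, and 8 were called higher and 4 lower. The shares called over all tested genes were 28.0% and 13.5%, so on TPM as deposited these counts lie near the background. The list shares 4 genes of the DUSP and SPRY families with the negative regulators. EGR3 went from 19.0 ± 0.871 to 12.7 ± 1.62 TPM (SD, n = 3; -0.55 log2, limma adjusted p = 0.00100) and EGR1 from 63.1 ± 3.18 to 44.2 ± 2.42 TPM (SD, n = 3; -0.51 log2, limma adjusted p = 1.44e-04); both are transcription factors of the immediate early response. DUSP4 was the largest rise, and SPRY2 followed with 0.37 log2 (limma adjusted p = 0.0237), a call lost after either rescaling (0.0528 and 0.0513). The median was -0.089 log2, against 0.073 for all tested genes. After either rescaling 5 were higher and 9 lower. Median-ratio rescaling called 15.5% of all tested genes higher and 19.2% lower, and quantile normalization 2146 and 2054 of all 11885. A larger share of this list than of all tested genes was thus called lower after rescaling, and the cause was not tested. Without sgSETD1A replicate 2 or 3, 5 were higher, where 2548 and 2435 of all tested genes were.

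**Figure D5:**
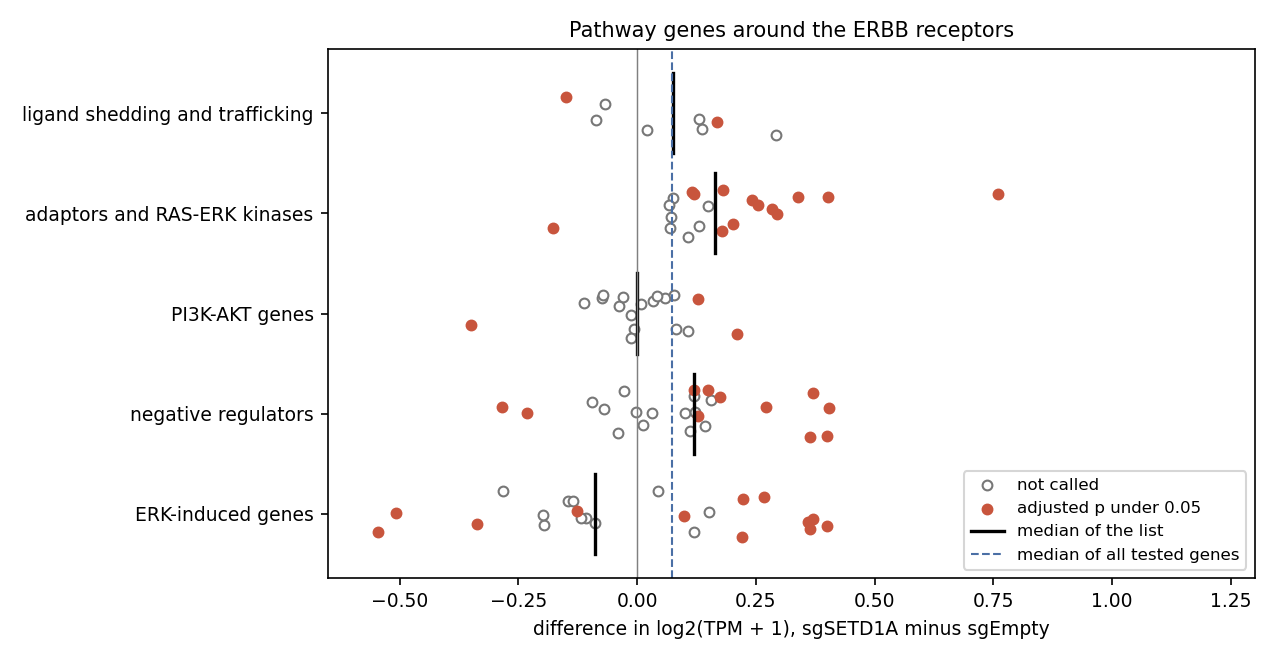
Difference in log2(TPM + 1), sgSETD1A minus sgEmpty, for each tested gene of 5 pathway lists; red points have a limma adjusted p under 0.05, open points do not, black bars are list medians and the dashed line is the median of all tested genes. Most adaptors and RAS-ERK kinases lie to the right of that line, with SRC at 0.76, and the ERK-induced genes lie on both sides, with EGR3 at -0.55.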

How the data were processed

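RNA was made into libraries with a strand-specific mRNA kit, per the labels. The deposited table holds TPM. Per the submitters' processing notes, STAR 2.6.0c, RSEM 1.3.1, bcl2fastq 2.20.0 and hg19 were used, with no role given for each. Its 1 row without a gene name, the column total, was left out. TPM keeps no depth, so no count test was run. The guide counts of the screen target none of these genes and were not used here.

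The 3 sgSETD1A libraries were compared with the 3 sgEmpty libraries on log2(TPM + 1) with limma 3.58.1 (R 4.3.3), letting the variance follow the mean level, for the 11885 genes with a mean of at least 1 TPM. The added 1 understates changes of low genes. The Benjamini-Hochberg adjustment ran over all tested genes, and an adjusted p under 0.05 was called. Members below the filter were read from the same fit over 16152 genes with no filter. The fit was also run on simulated data as a check of the code, and that run is no support for any call here.

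Members and gene lists were chosen with earlier results of these data known. From each pathway list the text names up to 2 of the largest called rises and falls. PIK3CA, PIK3CB and PIK3CD were named after their values were seen. All gene symbols listed matched the table, and ODAPH was matched by its older symbol. Promoters come from RefSeq on GRCh38.p14, which had an entry for 7 of the 8 genes.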

Additional observations from a re-analysis of the deposited data

How the results depend on the processing

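AREG was called lower in all 14 alternatives, with changes from -0.95 to -0.83 log2 (limma adjusted p from 2.25e-06 to 3.24e-04). Its fall in these libraries was known when it was chosen, so these fits show only how it depends on the processing. The number of the 8 genes called, 3 in the report, ran from 1 to 4 when each library was left out, with 0 or 1 higher and 1 to 3 lower, and was 1 without sgSETD1A replicate 2 or 3; with no mean-variance trend 1 was higher. Pathway genes called (38 of 91 tested, 29 higher and 9 lower, where 41.5% of all tested genes were called) ran from 25 to 38 when each library was left out (18 to 28 higher, 6 to 10 lower). Leaving out sgEmpty replicate 1, or replicate 2 or 3 of sgSETD1A, gave 25. The number of all tested genes called ran from 3660 to 5075 when each library was left out. Median-ratio rescaling gave 13 higher and 17 lower (15.5% and 19.2% of all tested genes), quantile normalization 17 and 15. Tested genes called higher numbered 1837 and 2146 after these rescalings, against 3327. The difference in the AREG share of ligand TPM was -8.19 to -7.84 points when each library was left out and -5.49 with only the 4 member ligands in the sum. TGFA turned sign after median-ratio rescaling (-0.052), quantile normalization (-0.055), or with sgEmpty replicate 3 (-0.012) or sgSETD1A replicate 1 (-0.052) left out; it ran from -0.052 to 0.046 when each library was left out. For all of these the cause was not tested.

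Replicate numbers were shared by the groups. The deviations of same-numbered libraries from their group means correlated across genes at r = 0.0845, -0.104 and 0.169. Other pairs ran from -0.21 to 0.139. The sgEmpty replicates 1 and 3 correlated best with their own number, as did sgSETD1A replicate 3, and the other libraries did not. With a replicate block 4642 genes were called, against 4932, and 2 of the 8, AREG and ERBB3. Fits with no filter under other settings were added after seeing the data. Low TPM values limit EREG, HBEGF and NRG2, whose depth is unknown.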
